A study of Mus musculus with 28 samples.

Results

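Induced neural stem cells grown from ear fibroblasts were compared with those grown from tail-tip fibroblasts, both made with the 4 factors written 4F. The comparison used 4 of the 28 libraries of the series, chosen by their labels: 2 libraries of the ear 4F line and 2 libraries of the tail-tip 4F line at passage 8. The ear line came from ear fibroblasts of 1.0-year Sox2-GFP mice, and the labels give no passage for it. The tail-tip line came from tail-tip fibroblasts of Sox2-GFP mice of the same age, was numbered 4F1 and was sampled at passage 8. Both lines carried the factors B/K/M/eSox17FNV, of which eSox17FNV is an engineered form of the transcription factor Sox17. The letters B, K and M are given as in the labels. Both were transduced with lentivirus for M2rtTA, the activator that responds to doxycycline, and with doxycycline-inducible lentiviruses for the factors. Doxycycline was present at 1 μg/mL for 18 days in a neural stem cell medium with bFGF and EGF at 10 ng/mL each, and colonies were picked at day 20 and expanded on Matrigel. Each side is 1 line, so source tissue, animal, colony and passage cannot be told apart. Ear fibroblasts were not analysed here. Nothing in the labels says that the replicates of a line were separate cultures. The p-values below measure only the spread between libraries of a group, pooled over all 28 libraries, and that spread may be technical. Neural stem cells with no factor, at passages 2 and 5, enter it as 1 group. Besides the 4 libraries, the levels in the other tail-tip lines are given where they bear on a gene: the same tail-tip 4F line at passage 18, a BKF line and a KMF line, with 2 libraries each, which makes 8 tail-tip libraries of induced cells in all. The BKF line carried B/K/eSox17FNV and the KMF line K/M/eSox17FNV, both in cells of 1.0-year Sox2-GFP mice. Tail-tip fibroblasts of that age with no factor are given beside some genes. So are neural stem cells with no factor from 2.5-year Sox2-GFP mice, 1 library at passage 2 and 1 at passage 5. In 1 place induced lines from embryonic fibroblasts are given. Those of ICR mice were made with B/K/eSox17FNV or K/eSox17FNV. Those of Sox2-GFP mice were made with B/K/eSox17FNV, K/eSox17FNV or K/M/eSox17FNV.

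Neural stem cells of the brain and spinal cord divide in the presence of EGF and bFGF and can give rise to neurons, astrocytes and oligodendrocytes. Where along the body such cells arise is written in their transcription factors: forebrain cells use genes such as Otx1, Six3 and the Dlx family, whereas the Hox genes, arranged in 4 clusters, mark levels from the hindbrain to the tail. Fibroblasts also keep a Hox code of the skin site they come from, and a line made from them starts with that code. Neural progenitors in culture depend on glycolysis and on the synthesis of cholesterol, and both pathways are set by the supply of oxygen and sterols around the cells.

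The authors' values are whole numbers on a normalised scale whose construction is not stated. Library totals ran from 15563679 to 15571626 over the 28 libraries, and 10 genes stood at the highest value of 92914 in ear replicate 1. The sequencing depth is therefore unknown, and so is the precision it would give. Tied values such as 28060, 32716 or 92914 recur between genes and libraries. Replicates differed by a median of 0.0862 on the log2 scale in the ear line and 0.150 in the tail-tip line, and 856 and 1102 genes lay over 2-fold apart. In 1049 of the 16275 tested genes (6.45%) some group of the series had a value of 1 or less in 1 replicate and 50 or more in the other. Such switching genes made up 21.4% of the tenth of the genes with the lowest GC content and 0.06% of that with the highest. A value above 0 need not stand for reads of the gene either, though this was not tested. Over all 28 libraries 530 tested genes had a correlation above 0.9 with a reference set of 420 genes. They were thus chosen for moving together. Their mean values were 18.7 to 337, and 407 of them were long intergenic RNA genes. Their median GC content was 38.9%, against 47.6% over all tested genes, and 0 of them were called here. The neural label was checked by markers in both lines. The 30 listed neural stem and progenitor genes summed to 214722 and 215685 in the ear line and to 222457 and 235477 in the tail-tip line, against 18471 and 18819 in tail-tip fibroblasts. The 30 fibroblast genes summed to 33107 and 33205 in the ear line and to 26665 and 28474 in the tail-tip line, against 809208 and 810943 in the fibroblasts. Defining fibroblast genes at 0 in all 4 libraries were Pdgfrb, Ltbp2 and Dpt.

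Of 16275 tested genes limma called 4419 (27.2%) at an adjusted p under 0.05, 2169 higher (13.3%) and 2250 lower (13.8%) in the ear line. At least 2-fold were 1680 calls (10.3%), of which 774 (4.76%) were higher and 906 (5.57%) lower. The values of the lines did not overlap in 10841 tested genes (66.6%), called or not. Leaving out ear replicate 1 reduced the calls to 2824, and leaving out tail-tip replicate 1 reduced them to 2935. Both ear libraries lay outside the range of all 8 tail-tip libraries in 2377 genes (14.6%): above it in 1291 (7.93%) and below it in 1086 (6.67%). Among genes called higher the ear line stood above all 8 in 641 (29.6%), and among genes called lower it stood below all 8 in 593 (26.4%). The other calls are differences from passage 8 that another tail-tip library closed. Between passages 18 and 8 of the tail-tip line itself 5716 genes (35.1%) were called. Against the mean of the BKF, KMF and passage 8 lines, the ear line had 2325 calls. By rank correlation across genes, which are not independent replicates, the ear libraries stood at 0.956 to 0.964 with the BKF libraries, at 0.954 to 0.955 with KMF, at 0.934 to 0.942 with 4F at passage 8 and at 0.921 to 0.937 with 4F at passage 18.

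The clearest rise in the ear line was an adjacent pair of zinc finger genes on chromosome 6 that the tail-tip 4F line hardly expressed. Repin1 (ENSMUSG00000052751, chromosome 6, 48593883 to 48599082, plus strand, GRCm38), a zinc finger protein first described at a replication origin, had 1862 and 1959 in the ear line, against 3 and 0 in the tail-tip line at passage 8 (log2 fold change 9.90 ± 0.37, adjusted p = 1.55e-11). At passage 18 it was listed at 0 in both libraries, while the BKF line had 2191 and 2190 and the KMF line 1526 and 1620. The 1.0-year tail-tip fibroblasts had 182 and 211. Zfp775 starts 2981 bases beyond the end of Repin1 and codes for a zinc finger protein too. It had 170 and 206 in the ear line and was listed at 0 in both tail-tip libraries (adjusted p = 6.17e-14) and in both at passage 18, with 180 and 210 in BKF and 184 and 196 in KMF. The ear line thus stood with the BKF and KMF lines, and the 4 libraries of the tail-tip 4F line stood apart. Genes on either side of the pair had values in all 4 libraries, though Rarres2 was about as low as Repin1 in the tail-tip line. Upstream, Rarres2, which codes for the secreted protein chemerin, had 6 and 13 in the ear line and 3 and 2 in the tail-tip line (log2 fold change 1.51 ± 0.61, adjusted p = 0.0775). Lrrc61, a leucine-rich repeat gene, had 177 and 178 in the ear line and 92 and 110 in the tail-tip line (log2 fold change 0.81 ± 0.30, adjusted p = 0.0599). Atp6v0e2, a subunit of the vesicular proton pump, had 1378 and 1516 in the ear line and 1252 and 1526 in the tail-tip line (adjusted p = 0.908). Gimap8, an immune GTPase gene downstream, had 182 and 176 in the ear line and 138 and 96 in the tail-tip line (adjusted p = 0.0588). None of the 4 passed the test. Rarres2 and Lrrc61 overlap, so reads of the shared stretch cannot be told apart. These neighbours were picked after their values were seen. The promoter of Zfp775 is shown because the silent stretch in the tail-tip line includes it. It lies on chr6:48601757-48602056 (GRCm38.p6, RefSeq, plus strand), its CG pairs are in capitals, and it holds 24 of them, against a median of 19 and quartiles of 9 and 27 over the 11893 tested genes that had a promoter sequence.
Zfp775: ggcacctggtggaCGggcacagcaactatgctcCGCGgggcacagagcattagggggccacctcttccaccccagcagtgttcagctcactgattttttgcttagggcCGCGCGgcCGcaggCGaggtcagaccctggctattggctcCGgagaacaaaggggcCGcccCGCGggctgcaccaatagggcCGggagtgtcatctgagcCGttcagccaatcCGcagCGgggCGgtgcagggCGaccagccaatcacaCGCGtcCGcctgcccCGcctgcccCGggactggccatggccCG

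Zic1 and Zic4, zinc finger factors of the dorsal neural tube and the cerebellum, were the ear line's largest regional rise. Zic1 (ENSMUSG00000032368, chromosome 9) had 908 and 852 in the ear line, against 1 and 2 in the tail-tip line (log2 fold change 8.49 ± 0.46, adjusted p = 1.91e-09). Zic4 had 44 and 44 in the ear line, against 0 and 2 in the tail-tip line (log2 fold change 4.70 ± 0.89, adjusted p = 0.000954). For Zic1 no tail-tip library of induced cells exceeded 26, whereas the tail-tip fibroblasts had 377 and 326, so the ear line stood above every induced tail-tip library and above the fibroblasts. The annotated genes overlap by 3398 bases on opposite strands, and the labels do not say whether counting used strand, so reads of the shared stretch cannot be told apart.

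Sox17, an endoderm factor whose altered form is part of the cocktail, had 222 and 262 in the ear line and was listed at 0 in the tail-tip line at both passages (adjusted p = 1.31e-09). The BKF line had 384 and 254 and the KMF line 62 and 29. Transcripts of the chromosome and of the lentiviral copy cannot be told apart in these values. Of 11 listed factor genes 2 were called higher, Sox17 and Sox2, and 1 lower, against 13.3% and 13.8% of all tested genes. Sox2, the regulator of neural stem cell identity whose reporter the mice carry, had 1716 and 1716 in the ear line and 1091 and 1157 in the tail-tip line (log2 fold change 0.61 ± 0.11, adjusted p = 0.000651). At passage 18 Sox2 was at 2624 and 2236, above the ear line. Klf2, of the Krüppel-like factors, was lower (6 and 8 in the ear line, 16 and 40 in the tail-tip line, log2 fold change -1.73 ± 0.48, adjusted p = 0.0139), and it lost the call without ear replicate 1 (adjusted p = 0.0966) or tail-tip replicate 2 (0.175). Klf4 had 424 and 426 in the ear line and 136 and 568 in the tail-tip line (adjusted p = 0.309), and Myc had 1444 and 1362 in the ear line and 3000 and 1464 in the tail-tip line (adjusted p = 0.175). Klf5, Mycl, Pou3f1, Pou3f2, Pou3f3 and Pou3f4 did not pass either. Without tail-tip replicate 2 the list had 3 higher and 2 lower, and without ear replicate 1 it had 2 and 0.

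**Figure D1:**
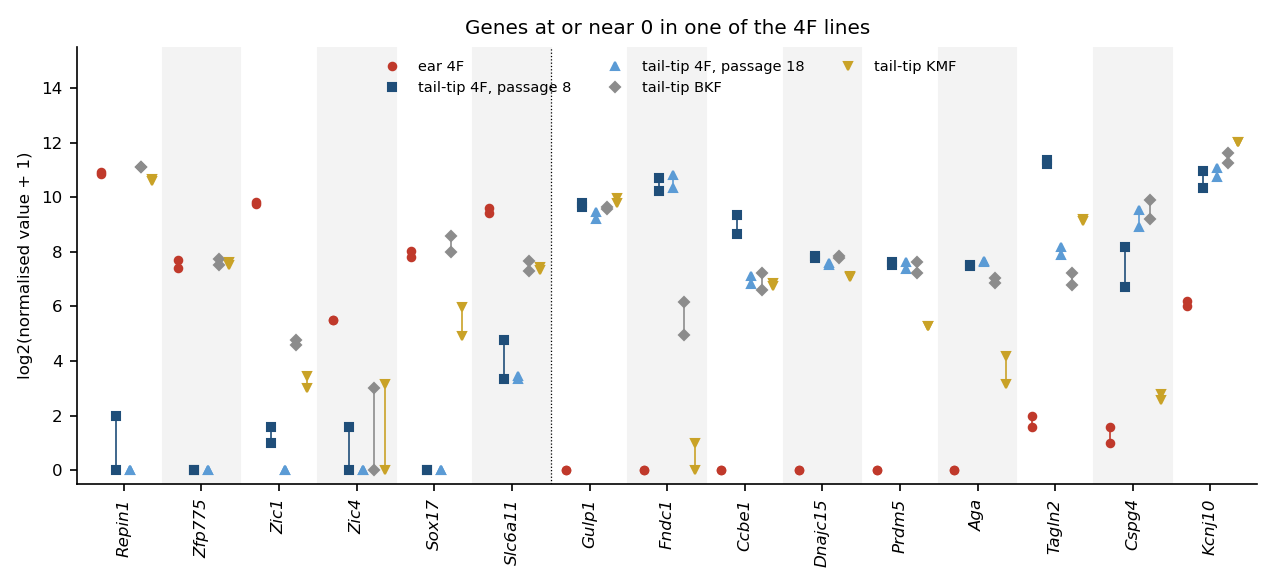
Genes at or near 0 in 1 of the 4F lines, as log2(normalised value + 1) in each library of the ear 4F line (red), the tail-tip 4F line at passages 8 and 18 (dark and light blue) and the tail-tip BKF and KMF lines (grey, gold). Left of the dotted line the ear line is high, as for Repin1 at 1862 and 1959 against 3 and 0 at passage 8; right of it the ear line is low, as for Gulp1, listed at 0 against 880 and 794.

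The 12 largest rises with a value on both sides included Repin1 and Zic1, 3 genes known from glia (Slc6a11, Gpr37l1 and Gjc3) and genes of other roles. Slc6a11, a GABA transporter of astrocytes, had 680 and 768 in the ear line, against 9 and 26 in the tail-tip line (log2 fold change 5.46 ± 0.29, adjusted p = 1.46e-09). Gpr37l1, a G protein-coupled receptor of astrocytes, had 658 and 709 in the ear line and 34 and 46 in the tail-tip line (log2 fold change 4.08 ± 0.24, adjusted p = 4.50e-09). For Gpr37l1 the tail-tip 4F line at passage 18, at 612 and 560, was near the ear line. For Slc6a11 all 8 tail-tip libraries were below the ear line, at 202 or less. Gjc3, a connexin of myelinating glia, had 1994 and 1944 in the ear line and 74 and 78 in the tail-tip line (log2 fold change 4.68 ± 1.29, adjusted p = 0.013), but lost the call in every fit with 1 library left out (adjusted p = 0.0533 to 0.0649). Tfap2a, the AP-2 alpha factor of neural crest and epidermis, had 248 and 204 in the ear line and 9 and 7 in the tail-tip line (log2 fold change 4.66 ± 0.44, adjusted p = 1.26e-06). Its ear level was above all 8 tail-tip libraries, the highest of which had 119. Enzymes in this group were Phospho1, a phosphatase of bone mineral formation (980 and 883 in the ear line, 10 and 50 in the tail-tip line), P4ha2, a subunit of collagen prolyl hydroxylase (332 and 317 in the ear line and 3 and 13 in the tail-tip line), and Chst3, a chondroitin sulfotransferase (650 and 683 in the ear line and 17 and 44 in the tail-tip line). Their log2 fold changes were 5.30 ± 0.50, 5.44 ± 0.57 and 4.55 ± 0.49, with adjusted p = 1.24e-06, 3.68e-06 and 5.38e-06. Cbln3, a secreted cerebellin (206 and 197 in the ear line and 5 and 21 in the tail-tip line, log2 fold change 4.14 ± 0.50, adjusted p = 1.52e-05), and Rgs8, a regulator of G protein signalling (689 and 744 in the ear line and 26 and 20 in the tail-tip line, log2 fold change 4.91 ± 1.13, adjusted p = 0.00427), rose too. Vmn2r78, a vomeronasal receptor gene of a large family in which reads can be shared between copies, had 412 and 396 in the ear line and 15 and 13 in the tail-tip line (log2 fold change 4.76 ± 1.18, adjusted p = 0.00672). In the BKF line its 2 libraries had 16 and 424. The lower tail-tip replicate mattered for the size: the log2 fold changes of Slc6a11, Phospho1, P4ha2, Chst3 and Cbln3 were 4.74, 4.19, 4.54, 3.89 and 3.20 without tail-tip replicate 1, and 6.18, 6.40, 6.35, 5.21 and 5.08 without replicate 2. That of Repin1 was 10.90 and 8.90, and that of Zic4 3.91 and 5.49. All of these kept the call.

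Of the genes listed at 0 in both tail-tip libraries and high in the ear line, 19 met the conditions for naming, and 14 of those 19 were switching genes. The others were Zfp775, Sox17, the olfactory receptor gene Olfr920 (439 and 443 in the ear line), the vomeronasal receptor gene Vmn1r210 (370 and 432) and Plek, a substrate of protein kinase C (116 and 94), the last of which was below the 12 with the highest means. Olfr920 had 596 and 556 at passage 18 and over 400 in the other tail-tip lines, while Vmn1r210 was at 0 in all 8 tail-tip libraries. Both belong to large receptor families in which reads can be shared between related genes, so their values are uncertain. Xlr, Tfec, Abca17, Luzp4, Olfr1353, Vmn1r202, Cngb3 and Mbd3l2 completed the 12 and all switched between replicates somewhere in the series. In the ear line Xlr had 522 and 424, Tfec had 356 and 336 and Abca17 had 359 and 574. The calls of Luzp4, Olfr1353, Vmn1r202, Cngb3 and Mbd3l2 were lost in every fit with 1 library left out, with adjusted p = 0.0502 to 0.142.

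Among the falls with a value on both sides the largest was Tagln2, an actin-binding protein of the transgelin family. Tagln2 had 3 and 2 in the ear line, against 2372 and 2640 in the tail-tip line (log2 fold change -9.50 ± 0.57, adjusted p = 5.97e-09). It was present in every other tail-tip library of induced cells, at 108 to 580, and in tail-tip fibroblasts at 1883 and 1862. The other falls with a value on both sides had varied roles. Col5a2, a fibrillar collagen chain, had 24 and 0 in the ear line and 706 and 768 in the tail-tip line (log2 fold change -7.20 ± 1.34, adjusted p = 0.000838); it was at 0 in both BKF libraries. Cspg4, the NG2 proteoglycan of oligodendrocyte precursors and pericytes, had 1 and 2 in the ear line and 104 and 285 in the tail-tip line (log2 fold change -6.14 ± 0.42, adjusted p = 3.33e-08). In the KMF line Cspg4 had 6 and 5, close to the ear line, while BKF had 956 and 581. Crispld2, a secreted protein of connective tissue, had 1 and 2 in the ear line and 330 and 118 in the tail-tip line (log2 fold change -6.34 ± 0.69, adjusted p = 5.93e-06), and Igsf10, of the immunoglobulin superfamily, had 0 and 42 in the ear line and 265 and 232 in the tail-tip line (log2 fold change -5.25 ± 0.98, adjusted p = 0.000843). Dcc, the receptor for netrin that guides axons, had 0 and 44 in the ear line and 696 and 844 in the tail-tip line (log2 fold change -6.84 ± 1.21, adjusted p = 0.000541). Dbx2, a homeobox factor of interneuron progenitors, had 10 and 0 in the ear line and 128 and 156 in the tail-tip line (log2 fold change -5.42 ± 0.70, adjusted p = 3.17e-05), with 1055 and 1626 at passage 18. Calca, which codes for calcitonin and its related peptide, had 1 and 1 in the ear line and 724 and 228 in the tail-tip line (log2 fold change -7.67 ± 0.61, adjusted p = 1.95e-07). Exosc6, of the RNA exosome, had 1 and 1 in the ear line and 263 and 34 in the tail-tip line, and stood at 2 or less in the other tail-tip libraries. Calca and Exosc6 were thus high at passage 8 and at 32 or less in the other 6 tail-tip libraries of induced cells. Hfm1, a meiotic helicase (1 and 1 in the ear line and 586 and 680 in the tail-tip line), and the claudin gene Cldn34c1 (1 and 1 in the ear line and 650 and 545 in the tail-tip line) were switching genes.

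For several of these falls 1 library set the size. Without ear replicate 1 the log2 fold changes were -9.53 for Col5a2, -4.09 for Dcc, -2.53 for Igsf10 and -7.15 for Dbx2, and without ear replicate 2 they were -4.88, -9.58, -7.96 and -3.69. Without tail-tip replicate 1 they were -6.84 for Calca, -5.60 for Crispld2, -6.87 for Cspg4 and -4.13 for Exosc6, and without tail-tip replicate 2 -8.50, -7.08, -5.42 and -7.04. None of these 8 genes lost the call in those fits.

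Of the genes called lower, 252 were listed at 0 in both ear libraries, against 56 genes called higher that were listed at 0 in both tail-tip libraries. With a tail-tip mean of at least 100 and a gene name, 54 of the 252 remained, of which 30 were switching genes. Gulp1, an adaptor for the engulfment of dying cells, was the steadiest: it was listed at 0 in both ear libraries and had 880 and 794 in the tail-tip line (adjusted p = 1.87e-20). It had 581 to 996 in all 8 tail-tip libraries of induced cells and 2418 and 2318 in the fibroblasts. Its promoter on chr1:44551421-44551720 (GRCm38.p6, RefSeq, plus strand) is shown because the gene was at 0 in the ear line and within 581 to 996 in every tail-tip line. The CG pairs are in capitals, 15 in number, against the median of 19 over all promoters.
Gulp1: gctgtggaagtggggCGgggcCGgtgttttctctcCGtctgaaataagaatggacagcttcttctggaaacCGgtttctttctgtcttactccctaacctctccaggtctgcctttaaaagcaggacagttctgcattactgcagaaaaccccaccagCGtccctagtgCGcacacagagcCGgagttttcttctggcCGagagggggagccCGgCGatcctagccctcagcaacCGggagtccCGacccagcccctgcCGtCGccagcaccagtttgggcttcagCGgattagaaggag

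The other steady genes at 0 in the ear line were matrix and lysosome genes. Fndc1, a fibronectin-domain protein, was listed at 0 in both ear libraries and had 1648 and 1210 in the tail-tip line (adjusted p = 3.33e-11). Ccbe1, a secreted protein needed for lymphatic growth, was listed at 0 in both ear libraries and had 642 and 402 in the tail-tip line (adjusted p = 3.11e-14). Ctgf, a matricellular growth factor partner, was listed at 0 in both ear libraries and had 124 and 933 in the tail-tip line (adjusted p = 2.16e-07), and Ctsc, the lysosomal dipeptidyl peptidase, was listed at 0 in both ear libraries and had 394 and 554 in the tail-tip line (adjusted p = 1.38e-05). Ctsc was at 0 in both BKF and both KMF libraries too, and Ctgf was at 5 or less in the other 6. Fndc1 was at 1 or less in KMF. Only Ccbe1 of these had values in every tail-tip library of induced cells, with 96 or more. Slc5a8, Klri1, Akr1c14, Agtr2, Ermn, Ccdc122 and Tmsb15b2 completed the 12 named and were switching genes. All of them but Slc5a8 lost the call in every fit with 1 library left out, with adjusted p = 0.068 to 0.154. A run of low genes on chromosome 14 was noticed after the values were seen. Dnajc15, a mitochondrial import protein, had 0 and 0 in the ear line, against 226 and 220 in the tail-tip line, and Lacc1, a metabolic regulator of macrophages, was listed at 0 in both ear libraries and had 103 and 98 in the tail-tip line. Between them lies Enox1, an oxidase gene, which had 112 and 126 in the ear line and 116 and 104 in the tail-tip line (adjusted p = 0.559), so the stretch was not silent as a whole. Lacc1 overlaps the switching gene Ccdc122 by 133 bases.

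Hox calls in the ear line were mostly falls in the middle and posterior groups, while Hoxa4 and Hoxa5 were higher. Of 14 tested Hox genes of paralog groups 5 to 9, 7 fell and 1 rose (median log2 fold change -1.85, against 0.02 over all tested genes, of which 13.8% fell and 13.3% rose). Of 7 tested genes of groups 10 to 13, 3 fell and 0 rose (median log2 fold change 0.0), and the other 4 were listed at 0 in both lines. The single rise of groups 5 to 9, Hoxa5, was lost without any 1 of the 4 libraries. The members listed at 0 enter these medians with a fitted difference that is no bound.

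In the B cluster Hoxb5 to Hoxb9 all fell. Hoxb8, which marks the trunk, had 104 and 114 in the ear line and 866 and 622 in the tail-tip line (log2 fold change -2.74 ± 0.25, adjusted p = 9.06e-07). Hoxb6 had 1 and 0 in the ear line and 94 and 46 in the tail-tip line (log2 fold change -5.56 ± 0.39, adjusted p = 4.19e-08), and Hoxb7 had 6 and 5 in the ear line and 70 and 40 in the tail-tip line (log2 fold change -3.06 ± 0.25, adjusted p = 2.13e-07). Hoxb5 had 6 and 6 in the ear line and 35 and 18 in the tail-tip line (log2 fold change -1.90 ± 0.25, adjusted p = 3.81e-05), and Hoxb9 had 30 and 24 in the ear line and 178 and 133 in the tail-tip line (log2 fold change -2.48 ± 0.36, adjusted p = 8.56e-05). Hoxb5 to Hoxb8 stood below all 8 tail-tip libraries in the ear line. The BKF line had the most of each, for example 2735 and 3303 of Hoxb8 and 1002 and 1383 of Hoxb6. Hoxb2, Hoxb3 and Hoxb4 did not pass the test, with 51 and 48 of Hoxb4 in the ear line and 76 and 58 in the tail-tip line.

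In the A cluster the posterior genes set the tail-tip 4F line apart from the ear, BKF and KMF lines. Hoxa9 had 6 and 8 in the ear line, against 1299 and 680 in the tail-tip line (log2 fold change -6.89 ± 0.69, adjusted p = 2.16e-06), and Hoxa10 had 53 and 56 in the ear line and 1626 and 1160 in the tail-tip line (log2 fold change -4.63 ± 1.09, adjusted p = 0.00478). Hoxa11 was listed at 0 in both ear libraries and had 18 and 23 in the tail-tip line (adjusted p = 1.91e-09). At passage 18 the tail-tip line kept high values, 1358 and 1234 for Hoxa9, 1239 and 1030 for Hoxa10 and 78 and 82 for Hoxa11. The BKF and KMF lines, also from tail-tip fibroblasts, had low values: BKF had 5 and 3 of Hoxa9 and 24 and 17 of Hoxa10, and KMF had 0 and 0 of Hoxa9 and 4 and 4 of Hoxa10. For these 3 genes the ear line therefore lay within the range of the tail-tip lines. Against the mean of the 3 tail-tip lines the log2 fold change of Hoxa10 was 0.08. Further forward in the cluster Hoxa5 had 526 and 530 in the ear line and 204 and 178 in the tail-tip line (log2 fold change 1.47 ± 0.41, adjusted p = 0.0148). Hoxa4 had 107 and 96 in the ear line and 36 and 24 in the tail-tip line (log2 fold change 1.75 ± 0.46, adjusted p = 0.0103), above all 8 tail-tip libraries. Hoxa4 lost the call without ear replicate 1 (adjusted p = 0.0646) and without tail-tip replicate 2 (0.0846). For Hoxa5 the adjusted p with 1 library left out was 0.0512 to 0.0779. Hoxa2, Hoxa3 and Hoxa7 did not pass, though Hoxa7 had 80 and 98 in the ear line and 473 and 320 in the tail-tip line.

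Genes of the C and D clusters were low in both lines. Hoxc5 was listed at 0 in the ear line and had 3 and 2 in the tail-tip line, Hoxc10 was listed at 0 in the ear line and had 4 and 4 in the tail-tip line, and Hoxc4 had 0 and 4 in the ear line and 12 and 9 in the tail-tip line. All of these were called lower (adjusted p = 0.000211, 0.00101 and 0.015), at levels of 12 or less. Hoxc4 lost the call without ear replicate 1 (adjusted p = 0.255) or tail-tip replicate 1 (0.0929), and without ear replicate 2 its log2 fold change was -3.51. Hoxc6, Hoxc11, Hoxc12, Hoxc13 and Hoxb13 were listed at 0 in all 4 libraries. The fibroblasts had 609 and 564 of Hoxc12, 535 and 521 of Hoxc13 and 1346 and 1378 of Hoxb13. Hoxc8 and Hoxc9 reached at most 5 in any of the 4 libraries. Hoxd4, Hoxd8 and Hoxd9 did not pass, with 120 and 86 of Hoxd8 in the ear line and 72 and 80 in the tail-tip line. Hoxa6, Hoxa13, Hoxd10 and Hoxd13 had too low a mean over the series to be tested. Of these, Hoxd13, a gene of the digits and the tail end, had 56 and 67 in the ear line and was listed at 0 in all 8 tail-tip libraries. Antisense transcripts run through the Hox clusters and cannot be told apart from the genes without strand. Of the 19 tested genes for other body positions, limb and face, 1 rose (Barx1) and 3 fell, against 13.3% and 13.8% of all tested genes. Tbx3, a limb and body wall factor, was listed at 0 in the ear line and had 30 and 40 in the tail-tip line, Prrx1, of limb mesenchyme, had 70 and 40 in the ear line and 214 and 216 in the tail-tip line, and Meox2, of somites, was listed at 0 in the ear line and had 44 and 30 in the tail-tip line. Without tail-tip replicate 1 the log2 fold change of Barx1 was 2.25, and without replicate 2 it was 4.25.

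**Figure D2:**
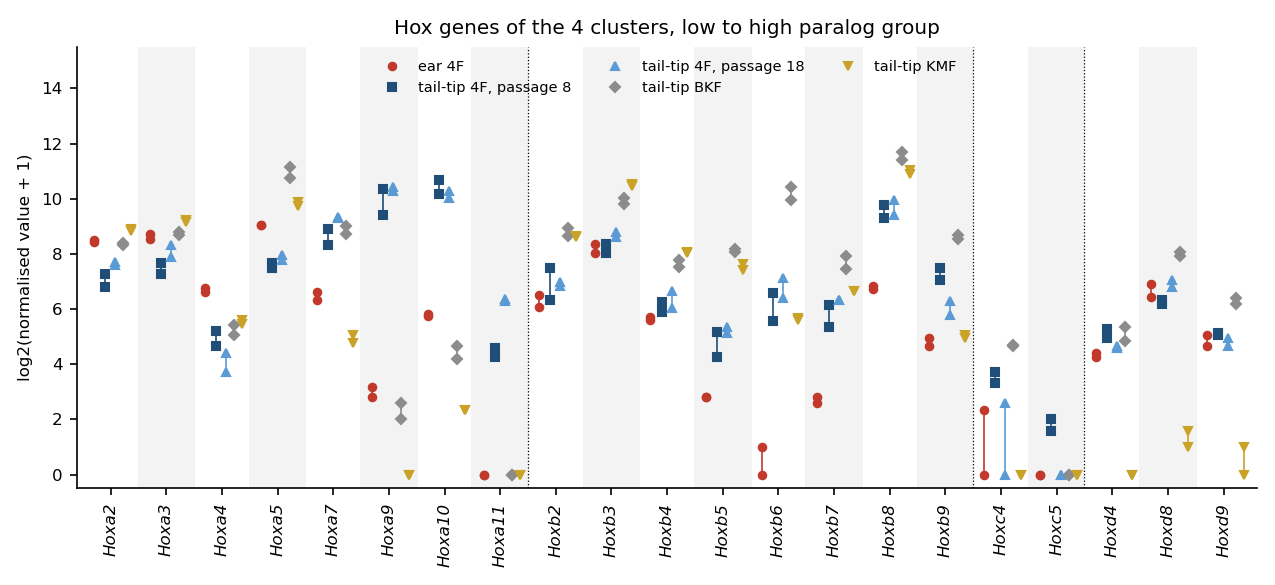
Hox genes in the order of their clusters (A, B, C, D; dotted lines) and paralog groups, as log2(normalised value + 1) per library of the ear 4F line, the tail-tip 4F line at passages 8 and 18 and the tail-tip BKF and KMF lines. Hoxb5 to Hoxb8 lie lowest in the ear line, while Hoxa9 to Hoxa11 are high only in the libraries of the tail-tip 4F line.

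Forebrain genes were higher in the ear line from a low base. Of 10 tested members 6 rose and 0 fell, against 13.3% and 13.8% of all tested genes, with a median log2 fold change of 1.25. Among the 6 members with a mean of at least 100 over the series, 2 rose and 0 fell, with a median of 0.26. Otx1, a factor of the forebrain and midbrain, had 66 and 67 in the ear line and 5 and 5 in the tail-tip line (log2 fold change 3.49 ± 0.31, adjusted p = 5.94e-07). Dlx1, of ventral forebrain progenitors, had 34 and 38 in the ear line and 1 and 1 in the tail-tip line (log2 fold change 4.21 ± 0.47, adjusted p = 6.76e-06), and its neighbour Dlx2 had 7 and 9 in the ear line and was listed at 0 in both tail-tip libraries. Dlx1 and Dlx2 stood above all 8 tail-tip libraries. Six3, of the eye field, had 40 and 28 in the ear line and 13 and 9 in the tail-tip line (log2 fold change 1.54 ± 0.29, adjusted p = 0.000842), and Tcf7l2, the Wnt effector of the thalamus, had 458 and 452 in the ear line and 214 and 254 in the tail-tip line (log2 fold change 0.96 ± 0.16, adjusted p = 0.000336). The neural stem cells with no factor, from 2.5-year mice, had more Six3, at 1150 and 1342. Pax6 and Lhx2 did not pass the test, with 566 and 572 of Pax6 in the ear line and 420 and 530 in the tail-tip line.

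Midbrain and hindbrain genes moved both ways, with 3 of 10 higher and 3 lower, against 13.3% and 13.8% of all tested genes. Lmx1b, a factor of the midbrain and dorsal spinal cord, had 116 and 102 in the ear line and 13 and 14 in the tail-tip line (log2 fold change 2.92 ± 0.31, adjusted p = 4.00e-06), above all 8 tail-tip libraries. Irx2 (146 and 176 in the ear line and 98 and 73 in the tail-tip line, log2 fold change 0.91 ± 0.14, adjusted p = 0.000194) and Irx1 (77 and 77 in the ear line and 40 and 46 in the tail-tip line, log2 fold change 0.83 ± 0.19, adjusted p = 0.00333), Iroquois factors of neural plate subdivisions, rose. Gbx2, of the anterior hindbrain, was lower at 20 and 32 in the ear line and 244 and 76 in the tail-tip line (log2 fold change -2.38 ± 0.60, adjusted p = 0.00766), and it lost the call without ear replicate 1 (adjusted p = 0.0745) or tail-tip replicate 1 (0.128). The Hox cofactor genes Meis1 and Meis2 were the other falls (log2 fold changes -0.43 ± 0.14 and -0.66 ± 0.19). Without ear replicate 1 none of the 3 falls was called, and without ear replicate 2 only Gbx2 was. Meis1 and Meis2 were also lost without tail-tip replicate 2, and over these fits their adjusted p ran from 0.0642 to 0.444.

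Dorsoventral factors of the spinal cord and hindbrain moved both ways: of 12 tested genes 4 fell and 3 rose, against 13.8% and 13.3% of all tested genes. Nkx6-1, of motor neuron and ventral interneuron progenitors, had 30 and 13 in the ear line, against 569 and 546 in the tail-tip line (log2 fold change -4.74 ± 0.34, adjusted p = 5.33e-08). Nkx2-2, of the most ventral progenitors and of oligodendrocyte precursors, was listed at 0 in both ear libraries and had 56 and 100 in the tail-tip line (adjusted p = 5.35e-08). With Dbx2 these genes lay below all 8 tail-tip libraries. Pax7, of dorsal progenitors, had 4 and 4 in the ear line and 38 and 48 in the tail-tip line (log2 fold change -3.13 ± 0.45, adjusted p = 9.53e-05), but passage 18 had 2 and 1. Olig2 had 17984 and 17984 in the ear line and 13046 and 6988 in the tail-tip line (log2 fold change 0.91 ± 0.24, adjusted p = 0.00933), and it lost the call without ear replicate 1 (adjusted p = 0.0504) or tail-tip replicate 2 (0.162).

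Glycolysis and the response to low oxygen made up the list with the largest share of calls. Of 21 tested genes 17 rose in the ear line and 0 fell, with a median log2 fold change of 1.89. Over all tested genes 13.3% rose and 13.8% fell. Slc2a1, the main glucose transporter of dividing cells, had 3552 and 3552 in the ear line, against 472 and 605 in the tail-tip line (log2 fold change 2.73 ± 0.25, adjusted p = 9.36e-07). Hk1, the hexokinase that traps glucose, had 3068 and 3192 in the ear line and 558 and 862 in the tail-tip line (log2 fold change 2.17 ± 0.18, adjusted p = 2.13e-07). Gpi1, the isomerase that follows, had 28060 and 28060 in the ear line and 6986 and 9706 in the tail-tip line (log2 fold change 1.77 ± 0.26), and Aldoa, the aldolase, had 32716 and 32716 in the ear line and 7154 and 10893 in the tail-tip line (log2 fold change 1.89 ± 0.28). Further down the pathway Tpi1 had 16122 and 16122 in the ear line and 2191 and 4127 in the tail-tip line (log2 fold change 2.42 ± 0.33), and Eno1 had 92914 and 92914 in the ear line and 15156 and 20138 in the tail-tip line (log2 fold change 2.41 ± 0.38). The ear values of Gpi1, Aldoa, Tpi1 and Eno1 were tied between the replicates. Egln3, the prolyl hydroxylase that marks the hypoxia factor for removal and is itself induced by it, had 2250 and 2286 in the ear line and 318 and 414 in the tail-tip line (log2 fold change 2.64 ± 0.20, adjusted p = 1.27e-07). Pdk1, the kinase that keeps pyruvate out of mitochondria, had 6318 and 6318 in the ear line and 193 and 1198 in the tail-tip line (log2 fold change 3.71 ± 0.53, adjusted p = 8.19e-05). Vegfa, the blood vessel growth factor and a target of the same factor, belongs to the growth factor list and not to these 21 genes. It had 9706 and 9706 in the ear line and 344 and 1786 in the tail-tip line (log2 fold change 3.63 ± 0.67, adjusted p = 0.00074). The members that were not called were Ndrg1, Pfkp, Slc16a3 and Pkm, with 68 and 90 of the lactate exporter Slc16a3 in the ear line and 24 and 440 in the tail-tip line.

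Only 6 of the 21 genes stood above all 8 tail-tip libraries in the ear line, and the others were matched or exceeded by at least 1 tail-tip library. The tail-tip replicates differed in the same direction. Replicate 2 was above replicate 1 in 19 of the 21 genes by a median of 0.61 on the log2 scale, against 6779 of all 16275 tested genes and a median of -0.01. Leaving out tail-tip replicate 1 gave 14 genes higher and 1 lower, with a median of 1.59. In that fit the log2 fold change of Pdk1 was 2.40 and that of Vegfa 2.44, and without replicate 2 they were 5.03 and 4.81.

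The letters ACGTG form the core of the element to which hypoxia factors bind. Within 250 bases before to 50 after the start, they occurred on either strand in 23.9% of the 11893 promoters of tested genes, and in 11 of 20 promoters of the glycolysis and hypoxia list (55.0%). Among the genes called higher it was 10 of 17 (58.8%). The sequences below show how the core is placed in promoters of genes that rose. Ldha, the lactate dehydrogenase, Bnip3, a mitophagy receptor, and Ankrd37, an ankyrin repeat protein induced by hypoxia, were chosen after their values were seen. They were picked as carriers of more than 1 core. Both strands were counted, so the single run CACGTG of Bnip3 counts as 2. Ldha had 32716 and 32716 in the ear line and 7994 and 13046 in the tail-tip line, Bnip3 had 5242 and 5090 in the ear line and 154 and 1122 in the tail-tip line, and Ankrd37 had 171 and 172 in the ear line and 42 and 48 in the tail-tip line. Capitals mark ACGTG on the strand shown or CACGT, its reverse, and the run CACGTG holds both. RefSeq places them on GRCm38.p6 at chr4:119108495-119108794 (Slc2a1, plus strand), chr12:54203825-54204124 (Egln3, minus strand), chr7:46845554-46845853 (Ldha, plus strand), chr7:138909457-138909756 (Bnip3, minus strand) and chr8:45999801-46000100 (Ankrd37, minus strand). The log2 fold change of Bnip3 was 2.20 without tail-tip replicate 1 and 5.06 without replicate 2. A match is a description of the letters and shows no binding.
Slc2a1: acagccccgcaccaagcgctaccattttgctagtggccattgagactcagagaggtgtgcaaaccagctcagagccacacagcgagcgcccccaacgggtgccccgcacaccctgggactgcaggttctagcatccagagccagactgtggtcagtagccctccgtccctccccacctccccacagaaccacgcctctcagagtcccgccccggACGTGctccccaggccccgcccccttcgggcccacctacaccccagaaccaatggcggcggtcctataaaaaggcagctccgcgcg
Egln3: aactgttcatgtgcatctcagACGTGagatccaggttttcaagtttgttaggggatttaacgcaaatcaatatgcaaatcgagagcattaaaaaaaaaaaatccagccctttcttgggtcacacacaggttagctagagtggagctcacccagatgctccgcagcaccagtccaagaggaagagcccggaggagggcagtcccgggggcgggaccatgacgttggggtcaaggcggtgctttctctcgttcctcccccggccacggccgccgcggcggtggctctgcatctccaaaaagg
Ldha: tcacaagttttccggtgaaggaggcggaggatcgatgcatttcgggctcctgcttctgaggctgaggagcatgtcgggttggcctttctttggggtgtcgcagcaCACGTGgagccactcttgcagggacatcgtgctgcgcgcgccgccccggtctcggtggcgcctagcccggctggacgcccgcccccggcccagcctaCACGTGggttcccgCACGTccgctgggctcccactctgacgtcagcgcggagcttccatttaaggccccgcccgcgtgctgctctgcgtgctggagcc
Bnip3: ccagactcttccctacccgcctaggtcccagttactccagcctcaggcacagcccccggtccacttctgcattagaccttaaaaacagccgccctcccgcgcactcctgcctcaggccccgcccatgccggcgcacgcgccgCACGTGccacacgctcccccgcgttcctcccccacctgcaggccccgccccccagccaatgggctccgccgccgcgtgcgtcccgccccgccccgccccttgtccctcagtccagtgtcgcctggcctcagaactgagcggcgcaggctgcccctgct
Ankrd37: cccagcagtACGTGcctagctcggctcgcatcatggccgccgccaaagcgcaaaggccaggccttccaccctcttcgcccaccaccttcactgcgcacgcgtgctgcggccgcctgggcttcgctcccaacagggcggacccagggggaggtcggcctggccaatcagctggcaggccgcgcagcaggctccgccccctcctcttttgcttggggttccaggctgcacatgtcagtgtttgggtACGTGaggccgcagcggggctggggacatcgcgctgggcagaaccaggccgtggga

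Cholesterol synthesis changed in the same direction. Of 26 tested genes of cholesterol and fatty acid synthesis 11 rose and 1 fell, with a median log2 fold change of 1.19. Over all tested genes 13.3% rose and 13.8% fell. For 20 of the 26 genes the ear line stood above all 8 tail-tip libraries, against 7.93% of all tested genes. Hmgcs1, the synthase that opens the mevalonate pathway, had 28063 and 28063 in the ear line, against 4635 and 11652 in the tail-tip line (log2 fold change 1.93 ± 0.55, adjusted p = 0.0151). Fdft1, the squalene synthase, had 3068 and 3022 in the ear line and 426 and 902 in the tail-tip line (log2 fold change 2.29 ± 0.56, adjusted p = 0.00588). Lss, the cyclase that makes lanosterol, had 2835 and 2943 in the ear line and 374 and 828 in the tail-tip line (log2 fold change 2.37 ± 0.45, adjusted p = 0.000943). The later steps Msmo1 (5028 and 4989 in the ear line and 724 and 1472 in the tail-tip line), Sc5d (1758 and 1750 in the ear line and 504 and 830 in the tail-tip line) and Dhcr7 (2877 and 3048 in the ear line and 786 and 1218 in the tail-tip line) rose as well (log2 fold changes 2.28 ± 0.57, 1.44 ± 0.25 and 1.60 ± 0.41). Elovl6, which lengthens fatty acids, had 3138 and 3088 in the ear line and 1384 and 1549 in the tail-tip line (log2 fold change 1.09 ± 0.23, adjusted p = 0.00219). The exception was Srebf1, the regulator of fatty acid synthesis, with 1094 and 1103 in the ear line, against 6988 and 6702 in the tail-tip line (log2 fold change -2.64 ± 0.14, adjusted p = 1.54e-09), below all 8 tail-tip libraries. Its target Scd2 was tied at 92914 in all 4 libraries, and Fasn did not pass.

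Here too replicate 2 of the tail-tip line was above replicate 1, in 22 of 26 genes, by a median of 0.73 on the log2 scale. Without tail-tip replicate 1 the list had 3 genes higher and 2 lower, with a median of 0.94, and without ear replicates 1 and 2 it had 6 and 5 higher, each with 1 lower. In a fit of the 20 libraries of induced cells alone 19 rose and 1 fell. Without tail-tip replicate 1, Hmgcs1, Fdft1, Msmo1 and Dhcr7 no longer passed (adjusted p = 0.189, 0.0838, 0.0918 and 0.0953), whereas Lss, Sc5d, Elovl6 and Srebf1 did. Hmgcs1 also failed without ear replicate 1 (0.0709) or 2 (0.0677), and Dhcr7 without ear replicate 2 (0.0507). The letters TCACNCCAC, the form of the sterol regulatory element, occurred on either strand in 1.06% of all promoters and in 1 of 16 of the list. That was Hmgcs1, on chr13:119690101-119690400 (GRCm38.p6, RefSeq, plus strand), shown with the match in capitals as the promoter of the gene that opens the pathway.
Hmgcs1: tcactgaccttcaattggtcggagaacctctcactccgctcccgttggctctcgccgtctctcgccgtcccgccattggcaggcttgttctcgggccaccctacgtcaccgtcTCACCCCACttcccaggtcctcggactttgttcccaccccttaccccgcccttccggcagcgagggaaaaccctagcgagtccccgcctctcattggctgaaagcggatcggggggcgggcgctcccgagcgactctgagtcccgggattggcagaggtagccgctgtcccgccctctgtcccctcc

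**Figure D3:**
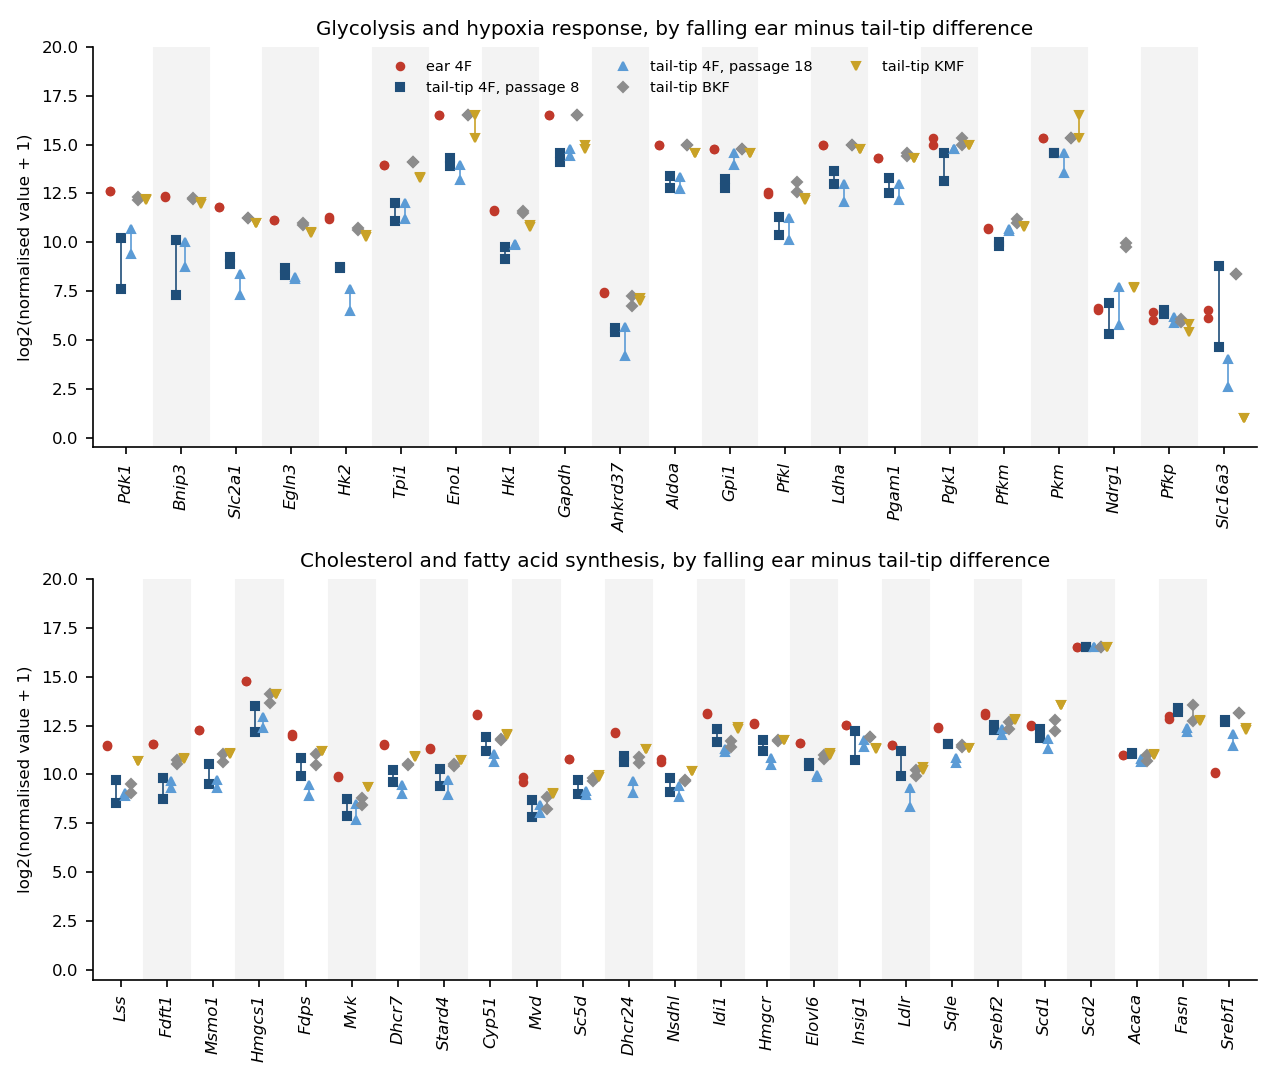
Tested members of the lists of glycolysis and hypoxia (top) and of cholesterol and fatty acid synthesis (bottom), each ordered by falling difference between the ear and the passage 8 tail-tip line, as log2(normalised value + 1) per library. In the top panel the BKF and KMF lines lie near the ear line. Over all 26 tested genes of the bottom list the ear line is above all 8 tail-tip libraries for 20.

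Genes of amino acid supply and the integrated stress response, which cells switch on when amino acids or protein folding fall short, were higher in 10 of 21 members and lower in 0, with a median log2 fold change of 0.70. Over all tested genes 13.3% were higher and 13.8% lower. Trib3, a pseudokinase target of the pathway, had 30 and 40 in the ear line and was listed at 0 in both tail-tip libraries (adjusted p = 3.72e-06). Vldlr, a lipoprotein receptor, had 2520 and 2304 in the ear line and 193 and 319 in the tail-tip line (log2 fold change 3.27 ± 0.35, adjusted p = 3.95e-06), above all 8 tail-tip libraries. Ddit4, an inhibitor of growth signalling that hypoxia also induces, had 3336 and 3578 in the ear line and 1232 and 930 in the tail-tip line (log2 fold change 1.69 ± 0.31, adjusted p = 0.000816). Slc7a11, the cystine importer, had 204 and 213 in the ear line and 116 and 118 in the tail-tip line (log2 fold change 0.83 ± 0.16, adjusted p = 0.00128), and Pck2, a mitochondrial gluconeogenic enzyme, had 1093 and 1126 in the ear line and 395 and 380 in the tail-tip line (log2 fold change 1.52 ± 0.29, adjusted p = 0.000927). At passage 18 the replicates spread widely, with 2118 and 737 for Pck2. Vldlr was the gene of the list above all 8 tail-tip libraries, and no other was. Against passage 18 the list had 5 higher and 1 lower, and leaving out ear replicate 1 left 6 higher.

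Cell cycle genes of the G1 phase were lower in the ear line, while genes of DNA replication and mitosis gave no call. Of 20 G1 cyclins, kinases and inhibitors 9 fell and 1 rose, with a median log2 fold change of -0.42. Over all tested genes 13.8% fell and 13.3% rose. Ccnd2, a cyclin that drives entry into the cycle, had 4522 and 4471 in the ear line, against 12122 and 8216 in the tail-tip line (log2 fold change -1.15 ± 0.24, adjusted p = 0.00191), and Cdk6, its partner kinase, had 6 and 4 in the ear line and 99 and 58 in the tail-tip line (log2 fold change -3.70 ± 0.47, adjusted p = 2.41e-05). Inhibitors fell beside them: Cdkn2a, the locus of p16 and p19, had 748 and 772 in the ear line and 1648 and 1848 in the tail-tip line (log2 fold change -1.20 ± 0.17, adjusted p = 8.62e-05), and the imprinted Cdkn1c had 18 and 12 in the ear line and 60 and 116 in the tail-tip line (log2 fold change -2.43 ± 0.45, adjusted p = 0.000737). Cdkn1b, the p27 inhibitor, was the single rise (2000 and 1882 in the ear line and 1378 and 1388 in the tail-tip line, log2 fold change 0.49 ± 0.10, adjusted p = 0.00194). Passage 8 stood apart for some of these genes. Against passage 18 the same list had 10 higher and 3 lower in the ear line with a median of 0.48, and the log2 fold changes of Ccnd2 and Cdkn2a were 1.13 and 0.50. When tail-tip replicate 1 was left out there were 6 falls and 1 rise. Of 22 DNA replication genes and of 22 mitosis genes 0 were called in either direction, with 0 and 0 at an unadjusted p under 0.05. Against passage 18, 19 of the 22 replication genes and 2 of the mitosis genes were higher in the ear line and 0 lower, with medians of 2.02 and 1.42. The mitosis genes had a median of 0.41 and no overlap between the lines in 21 of 22, against 66.6% of all genes: Mki67, the proliferation antigen, had 10890 and 9950 in the ear line and 5846 and 5242 in the tail-tip line, and Top2a, the mitotic topoisomerase, had 20138 and 20138 in the ear line and 10890 and 12122 in the tail-tip line. In the fit of the 4 libraries alone 13 mitosis genes were higher, and 1 replication gene was higher and 6 lower.

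Cell type markers are given next; in such bulk values fewer cells of a type cannot be told apart from less RNA per cell. Of 15 astrocyte genes 8 rose and 1 fell (median log2 fold change 0.54), against 13.3% and 13.8% of all tested genes. The astrocyte genes summed to 28971 and 29157 in the ear line and 17801 and 20391 in the tail-tip line. Hepacam, an adhesion protein of astrocytes, had 2012 and 1838 in the ear line and 111 and 160 in the tail-tip line (log2 fold change 3.84 ± 0.25, adjusted p = 1.77e-08). Sparcl1, a secreted synapse-forming protein, had 2234 and 2224 in the ear line and 358 and 378 in the tail-tip line (log2 fold change 2.60 ± 0.31, adjusted p = 1.44e-05), and Slc1a2, the glutamate transporter, had 835 and 819 in the ear line and 87 and 138 in the tail-tip line (log2 fold change 2.90 ± 0.38, adjusted p = 3.16e-05). Aqp4, the water channel of astrocyte endfeet, rose from a low level (205 and 212 in the ear line, 78 and 90 in the tail-tip line). Apoe, the lipid carrier, went against the list, with 356 and 401 in the ear line and 2640 and 2433 in the tail-tip line (log2 fold change -2.74 ± 0.36, adjusted p = 3.89e-05), below all 8 tail-tip libraries. At passage 18 the tail-tip line had far more of both, with 11652 and 28063 of Apoe and 1918 and 3924 of Aqp4. Against passage 18 the list turned to 4 higher and 7 lower with a median of -0.47, and the log2 fold changes of Aqp4 and Slc1a2 were -3.71 and -0.47.

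Neural stem and progenitor genes moved both ways, with 4 of 30 higher and 6 lower (median -0.03), against 13.3% and 13.8% of all tested genes. Nes, the intermediate filament of progenitors, had 7289 and 7994 in the ear line, against 32716 and 32716 in the tail-tip line (log2 fold change -2.10 ± 0.20, adjusted p = 1.75e-06). In the other 6 tail-tip libraries of induced cells Nes was at 5952 to 8658, so passage 8 was the high one. Sox1, an early neural factor (30 and 18 in the ear line and 209 and 198 in the tail-tip line, log2 fold change -3.07 ± 0.42, adjusted p = 5.06e-05), and Hopx, a marker of quiescent and outer progenitors (74 and 76 in the ear line and 328 and 322 in the tail-tip line, log2 fold change -2.10 ± 0.27, adjusted p = 3.05e-05), were lower. Nr2e1, the nuclear receptor Tlx that keeps neural stem cells dividing, had 48 and 38 in the ear line and was listed at 0 in both tail-tip libraries (adjusted p = 5.73e-10). It had 1 and 3 at passage 18, 46 and 34 in BKF and 38 and 33 in KMF. Msi1, the Musashi RNA-binding protein, was lower (556 and 599 in the ear line and 900 and 830 in the tail-tip line, log2 fold change -0.58 ± 0.09, adjusted p = 0.000115) and lay below all 8 tail-tip libraries.

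The counts in this paragraph are set against the 27.2% called over all tested genes. Of 11 oligodendrocyte genes 3 rose and 2 fell. The falls were Cspg4 and Nkx2-2, and the rises Sox8, a partner of Sox10 in glia (7154 and 7154 in the ear line, 3336 and 1814 in the tail-tip line, log2 fold change 1.54 ± 0.20, adjusted p = 4.03e-05), Pdgfra, the receptor of oligodendrocyte precursors (102 and 94 in the ear line and 30 and 48 in the tail-tip line, log2 fold change 1.34 ± 0.24, adjusted p = 0.000562), and Cnp, a myelin enzyme (1573 and 1625 in the ear line and 842 and 1166 in the tail-tip line, log2 fold change 0.69 ± 0.18, adjusted p = 0.00889). Cnp lost the call without ear replicate 2 (adjusted p = 0.0538) or tail-tip replicate 1 (0.137). Of 13 neuron genes 1 rose and 2 fell: Dcx, the microtubule protein of young neurons, had 335 and 346 in the ear line and 654 and 488 in the tail-tip line (log2 fold change -0.73 ± 0.15, adjusted p = 0.00206), Ina, an internexin, had 46 and 45 in the ear line and 226 and 116 in the tail-tip line (log2 fold change -1.81 ± 0.39, adjusted p = 0.00237), and Gad1, a GABA-synthesising enzyme, had 62 and 66 in the ear line and 16 and 4 in the tail-tip line (log2 fold change 2.82 ± 0.73, adjusted p = 0.00892), which lost the call without tail-tip replicate 2 (adjusted p = 0.117). Without that library the neuron list had 0 higher and 3 lower. Of 11 neural crest and Schwann genes 3 rose, led by Cdh19, a cadherin of Schwann cell precursors (1352 and 1314 in the ear line, 714 and 666 in the tail-tip line, log2 fold change 0.95 ± 0.05, adjusted p = 1.29e-09), and 1 fell. There were 2 falls without ear replicate 2 and 0 without tail-tip replicate 1.

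Of 29 fibroblast genes 8 fell and 1 rose in the ear line, against 13.8% and 13.3% of all tested genes. Their median log2 fold change was -1.0, and it was -0.17 without tail-tip replicate 1. The list had 0 rises without ear replicate 1, ear replicate 2 or tail-tip replicate 1. Fbn1, the main microfibril protein, had 86 and 72 in the ear line, against 758 and 773 in the tail-tip line (log2 fold change -3.27 ± 0.26, adjusted p = 1.83e-07) and 24587 and 24587 in the fibroblasts. Sparc, a matricellular protein, had 3552 and 3635 in the ear line and 11648 and 10338 in the tail-tip line (log2 fold change -1.61 ± 0.21, adjusted p = 3.75e-05), and Mmp2, a matrix protease, had 38 and 40 in the ear line and 296 and 194 in the tail-tip line (log2 fold change -2.59 ± 0.53, adjusted p = 0.0018). Fbn1, Sparc, Mmp2, Prrx1 and Thy1 stood below all 8 tail-tip libraries. The defining collagen genes Col1a1 and Col1a2 did not pass the test: Col1a1 had 32 and 28 in the ear line and 24 and 21 in the tail-tip line, and Col1a2 had 0 and 0 in the ear line and 24 and 0 in the tail-tip line. Fbln2, a matrix glycoprotein that made up most of the ear line's sum of fibroblast genes, had 24590 and 24590 in the ear line and 8896 and 11652 in the tail-tip line and did not pass. Markers of other cell types, set against the 27.2% called over all tested genes, gave 1 higher and 3 lower of 9 smooth muscle genes, 1 and 1 of 5 endothelial genes, 0 and 0 of 6 macrophage genes, 0 and 1 of 3 keratinocyte genes and 0 and 0 of 2 pluripotency genes. The macrophage genes summed to 16 and 30 in the ear line and 19 and 23 in the tail-tip line, with Ptprc, Adgre1 and Tyrobp listed at 0 in all 4 libraries. Without ear replicate 2 the smooth muscle list had 1 higher and 1 lower, and without ear replicate 1 the keratinocyte list had 2 lower. The endothelial list kept its 1 rise but had 0 falls without ear replicate 1, tail-tip replicate 1 or tail-tip replicate 2.

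In the receptor tyrosine kinase and growth factor list 6 of 32 genes rose and 7 fell, against 13.3% and 13.8% of all tested genes. Ligands of the platelet-derived family were higher: Pdgfa had 236 and 228 in the ear line and 80 and 83 in the tail-tip line (log2 fold change 1.50 ± 0.18, adjusted p = 1.34e-05), and Pdgfc had 246 and 220 in the ear line and 134 and 118 in the tail-tip line (log2 fold change 0.88 ± 0.09, adjusted p = 1.92e-06). The EGF receptor ligands parted. Tgfa had 112 and 89 in the ear line and 15 and 18 in the tail-tip line (log2 fold change 2.53 ± 0.34, adjusted p = 4.71e-05), while Hbegf had 176 and 216 in the ear line and 1322 and 1252 in the tail-tip line (log2 fold change -2.72 ± 0.25, adjusted p = 8.43e-07). Pdgfa, Pdgfc and Tgfa stood above all 8 tail-tip libraries. Dusp6, a phosphatase that follows ERK activity, had 4242 and 4355 in the ear line and 9706 and 11648 in the tail-tip line (log2 fold change -1.31 ± 0.26, adjusted p = 0.00156), but its log2 fold change against passage 18 was 1.40. Fgf13, an intracellular member of the FGF family, had 4 and 0 in the ear line and 42 and 62 in the tail-tip line (log2 fold change -4.54 ± 0.77, adjusted p = 0.000384), with a log2 fold change of -5.70 without ear replicate 1 and -3.38 without ear replicate 2. Without tail-tip replicate 1 the list had 4 higher and 3 lower, and without ear replicate 1 it had 5 and 4.

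Pathways of cell fate moved in both directions. Over all tested genes 27.2% were called. Of 16 Notch genes 3 rose and 2 fell, of 11 Hedgehog genes 1 and 4, of 21 Wnt genes 1 and 3, and of 27 BMP and TGF beta genes 5 and 3. The receptor Notch3 had 5090 and 4840 in the ear line and 1282 and 2024 in the tail-tip line (log2 fold change 1.62 ± 0.20, adjusted p = 2.47e-05), above all 8 tail-tip libraries, while Lfng, which modifies Notch receptors, had 1918 and 1918 in the ear line and 3527 and 3578 in the tail-tip line (log2 fold change -0.89 ± 0.18, adjusted p = 0.00149). Evc and Evc2, cilium proteins of Hedgehog signalling that lie next to each other, fell together: Evc had 59 and 58 in the ear line and 384 and 414 in the tail-tip line (log2 fold change -2.75 ± 0.17), and Evc2 had 174 and 122 in the ear line and 592 and 610 in the tail-tip line (log2 fold change -2.04 ± 0.28). Cdon, a Hedgehog coreceptor, had 786 and 779 in the ear line and 2446 and 1967 in the tail-tip line (log2 fold change -1.49 ± 0.19, adjusted p = 2.67e-05). The BKF and KMF lines had still less of Evc, with 12 and 8 in BKF and 0 and 0 in KMF, and against the mean of the 3 tail-tip lines the log2 fold change of Evc was 1.87. Axin2, the feedback target of Wnt, had 1198 and 1169 in the ear line and 612 and 402 in the tail-tip line (log2 fold change 1.25 ± 0.30, adjusted p = 0.00502), and lost the call without tail-tip replicate 2 (adjusted p = 0.0672). In the TGF beta family the receptor Tgfbr2 had 288 and 258 in the ear line and 1586 and 1144 in the tail-tip line (log2 fold change -2.30 ± 0.15, adjusted p = 1.32e-08) and the ligand Bmp7 had 578 and 448 in the ear line and 80 and 59 in the tail-tip line (log2 fold change 2.87 ± 0.35, adjusted p = 1.88e-05). The BMP targets Id2 and Id1 parted, Id2 with 1258 and 1112 in the ear line and 548 and 388 in the tail-tip line (log2 fold change 1.36 ± 0.20, adjusted p = 0.000107) and Id1 with 52 and 49 in the ear line and 133 and 460 in the tail-tip line (log2 fold change -2.27 ± 0.39, adjusted p = 0.000404). The log2 fold change of Id1 was -3.16 without tail-tip replicate 1 and -1.38 without replicate 2. Leaving out 1 library also moved these lists: Notch had 1 higher and 4 lower without tail-tip replicate 1 and 6 higher and 1 lower without replicate 2. Wnt had 1 and 1 without either ear library and 0 and 1 without tail-tip replicate 2, and the 1 Hedgehog rise was lost without ear replicate 1 or tail-tip replicate 1.

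Channels and receptors of neural cells changed in 13 of 29 members, 7 higher and 6 lower, against 27.2% called over all tested genes. Grm5, a metabotropic glutamate receptor, had 3820 and 3888 in the ear line, against 740 and 908 in the tail-tip line (log2 fold change 2.23 ± 0.13, adjusted p = 3.12e-09), and Grm3, of the same family, had 408 and 410 in the ear line and 140 and 110 in the tail-tip line (log2 fold change 1.71 ± 0.14, adjusted p = 3.15e-07). Cacng4, an auxiliary subunit of AMPA receptors, had 1140 and 1112 in the ear line and 254 and 343 in the tail-tip line (log2 fold change 1.93 ± 0.32, adjusted p = 0.000281). The inward rectifier channels of glia parted: Kcnj10 had 64 and 72 in the ear line and 1286 and 1966 in the tail-tip line (log2 fold change -4.53 ± 0.66, adjusted p = 9.32e-05), while its partner Kcnj16 had 916 and 1002 in the ear line and 427 and 486 in the tail-tip line (log2 fold change 1.07 ± 0.09, adjusted p = 2.05e-07). Kcnj10 was at 1286 to 4170 in the 8 tail-tip libraries, all far above the ear line. Without ear replicate 1 the list had 4 higher and 6 lower.

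Of 24 protocadherin and adhesion genes 4 rose and 7 fell, against 13.3% and 13.8% of all tested genes. Itga7, a laminin receptor subunit, had 10 and 12 in the ear line and 388 and 358 in the tail-tip line (log2 fold change -4.97 ± 0.28, adjusted p = 3.14e-09), below all 8 tail-tip libraries. Pcdh10, a protocadherin, had 3254 and 3138 in the ear line and 1120 and 1202 in the tail-tip line (log2 fold change 1.46 ± 0.18, adjusted p = 2.57e-05), and Nrcam, a neuronal adhesion protein, had 1814 and 1838 in the ear line and 840 and 724 in the tail-tip line (log2 fold change 1.23 ± 0.12, adjusted p = 1.55e-06), though passage 18 had 2286 and 2504 of it. Of 26 axon guidance genes 6 fell and 1 rose, against 27.2% called over all tested genes. Sema5a, a guidance protein with both attractive and repulsive action, had 130 and 100 in the ear line and 1096 and 654 in the tail-tip line (log2 fold change -2.88 ± 0.51, adjusted p = 0.000565), and Efnb2, an ephrin, had 42 and 58 in the ear line and 120 and 99 in the tail-tip line (log2 fold change -1.13 ± 0.20, adjusted p = 0.000672). The guidance genes had 0 higher and 4 lower without tail-tip replicate 1, and 2 higher and 6 lower without replicate 2.

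Of 26 imprinted genes, which are expressed from the copy of a single parent, 7 fell and 1 rose, with a median log2 fold change of -0.30. Over all tested genes 13.8% fell and 13.3% rose. Ndn had 310 and 326 in the ear line and 1096 and 704 in the tail-tip line (log2 fold change -1.46 ± 0.22, adjusted p = 0.000112), Peg3 had 5088 and 4756 in the ear line and 8894 and 8657 in the tail-tip line (log2 fold change -0.83 ± 0.15, adjusted p = 0.000712), and Peg10 had 2416 and 2286 in the ear line and 5539 and 3772 in the tail-tip line (log2 fold change -0.96 ± 0.16, adjusted p = 0.000267). Grb10, an adaptor that restrains insulin signalling, had 24 and 18 in the ear line and 78 and 59 in the tail-tip line (log2 fold change -1.66 ± 0.22, adjusted p = 3.89e-05) and was below all 8 tail-tip libraries. Gnas, the stimulatory G protein locus, was the rise (17981 and 17981 in the ear line, 12122 and 11648 in the tail-tip line, log2 fold change 0.60 ± 0.08, adjusted p = 6.98e-05). Nnat had 3 and 2 in the ear line and 5 and 9 in the tail-tip line, with 1239 and 1270 in the KMF line, and lost its call without tail-tip replicate 2 (adjusted p = 0.0593).

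The lists of this paragraph are likewise set beside the 27.2% called over all tested genes. Of 15 class I antigen presentation genes 4 rose and 1 fell, and of 25 interferon genes 2 and 3. H2-T23, a nonclassical class I gene, had 4 and 5 in the ear line and 34 and 42 in the tail-tip line (log2 fold change -2.82 ± 0.48, adjusted p = 0.00041), and Ifitm3, an antiviral membrane protein, had 282 and 332 in the ear line and 1808 and 1764 in the tail-tip line (log2 fold change -2.54 ± 0.36, adjusted p = 8.21e-05). Class I genes share reads with close copies, so such values are uncertain. Leaving out any 1 of the 4 libraries reduced the class I rises to 2. Without tail-tip replicate 2 the interferon list had 3 higher and 1 lower. Of 16 p53 targets 2 rose and 4 fell, among them Bbc3, a killer protein of the Bcl2 family (118 and 122 in the ear line, 256 and 313 in the tail-tip line, log2 fold change -1.23 ± 0.23, adjusted p = 0.000858). The p53 list had 2 higher and 2 lower without tail-tip replicate 1, and 1 higher and 3 to 5 lower without any 1 of the other libraries. Of 20 immediate early genes, which answer within minutes to growth factors or handling, 2 rose and 3 fell. In 19 of the 20 tail-tip replicate 2 exceeded replicate 1, by a median of 1.55 on the log2 scale. Nr4a3, a nuclear receptor of this class, had 32 and 28 in the ear line and 228 and 858 in the tail-tip line (log2 fold change -3.84 ± 0.47, adjusted p = 1.69e-05), with log2 fold changes of -4.79 without tail-tip replicate 1 and -2.89 without replicate 2. The immediate early list had 1 higher and 6 lower without replicate 1, 4 higher and 2 lower without replicate 2, and 1 higher and 2 lower without either ear library. Of 12 genes of DNA methylation and retroelement control 2 rose and 0 fell, and of 8 germline genes 1 rose and 1 fell, the rise being lost without either ear library. Both rises of the DNA methylation list were lost without any of 3 libraries, ear replicate 1, ear replicate 2 or tail-tip replicate 2.

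The Y-linked gene Ddx3y, an RNA helicase, had 2327 and 2372 in the ear line and 2304 and 2601 in the tail-tip line (adjusted p = 0.483), and Kdm5d, Uty and Eif2s3y also had values in all 4 libraries. Xist had 216 and 191 in the ear line and 196 and 166 in the tail-tip line (adjusted p = 0.698), while in the 1.0-year tail-tip fibroblasts it was listed at 0. Zfy1 had 0 and 0 in the ear line and 0 and 386 in the tail-tip line and did not pass, nor did the X-linked Eif2s3x, Kdm6a and Kdm5c. Of 10 tested sex-linked genes 1 was called, Ddx3x, which was lower (16122 and 16122 in the ear line, 20138 and 21805 in the tail-tip line, log2 fold change -0.38 ± 0.11, adjusted p = 0.0146). Ddx3x lost the call without ear replicate 1 (adjusted p = 0.0697), ear replicate 2 (0.0667) or tail-tip replicate 2 (0.102), and the 2 Xist values of each line overlapped.

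**Figure D4:**
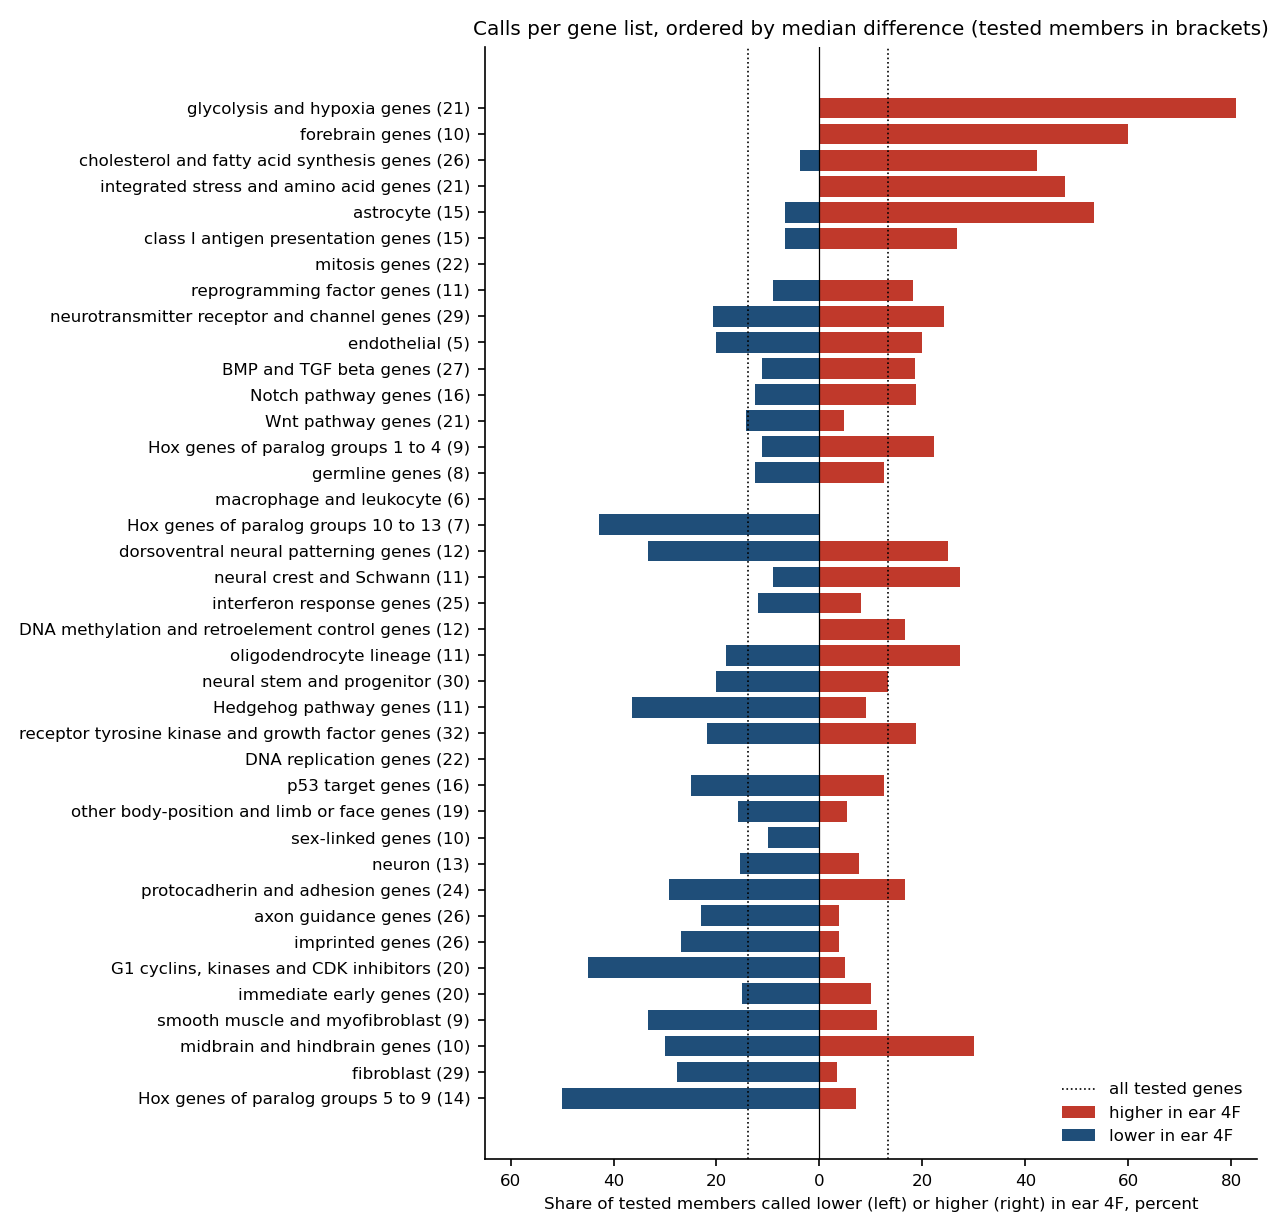
Share of the tested members of each gene list with at least 5 of them called lower (left, blue) or higher (right, red) in the ear 4F line at limma's adjusted p under 0.05, with the number tested in brackets and the lists ordered by median log2 fold change. Dotted lines mark the shares over all tested genes, 13.8% lower and 13.3% higher; the glycolysis and hypoxia list lies at the top, with 17 of 21 higher, and the Hox genes of groups 5 to 9 at the bottom, with 7 of 14 lower.

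Along the genome chromosome 1 stood out, which was noticed after the values were seen. Of 959 tested genes on chromosome 1, 191 (19.9%) rose and 102 (10.6%) fell, against 13.3% and 13.8% over all genes. In the stretch chr1:66830839-78707743 (GRCm38), 51 genes had a median log2 fold change of 0.50, with 22 higher and 0 lower, and in chr1:155127277-165236996 50 genes had a median of 0.36, with 22 higher and 2 lower. These windows held 50 or 51 neighbouring genes with a mean of at least 100 in 1 of the lines, without switching genes, which left 10968 genes. Over 2007 overlapping windows of 50 such genes on chromosomes 1 to 19 and X the medians ran from -0.33 to 0.50; chromosome Y had too few. Relative to the mean of all induced lines, genes of the first stretch had a median of 0.19 and 0.20 in the ear libraries and -0.38 and -0.21 in the tail-tip libraries at passage 8. It was -0.07 and -0.06 at passage 18, -0.11 and -0.01 in the BKF line and -0.06 and -0.05 in the KMF line. The lines from ICR embryonic fibroblasts had 0.34 to 0.48. Lines from Sox2-GFP embryonic fibroblasts were lower: -0.18 and -0.24 with B/K/eSox17FNV, -0.15 and -0.13 with K/M/eSox17FNV, and 0.02 and 0.05 with K/eSox17FNV. Between passages 18 and 8 of the tail-tip line itself the 50 genes had a median difference of 0.41. The median log2 fold change of all genes was 0.02.

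**Figure D5:**
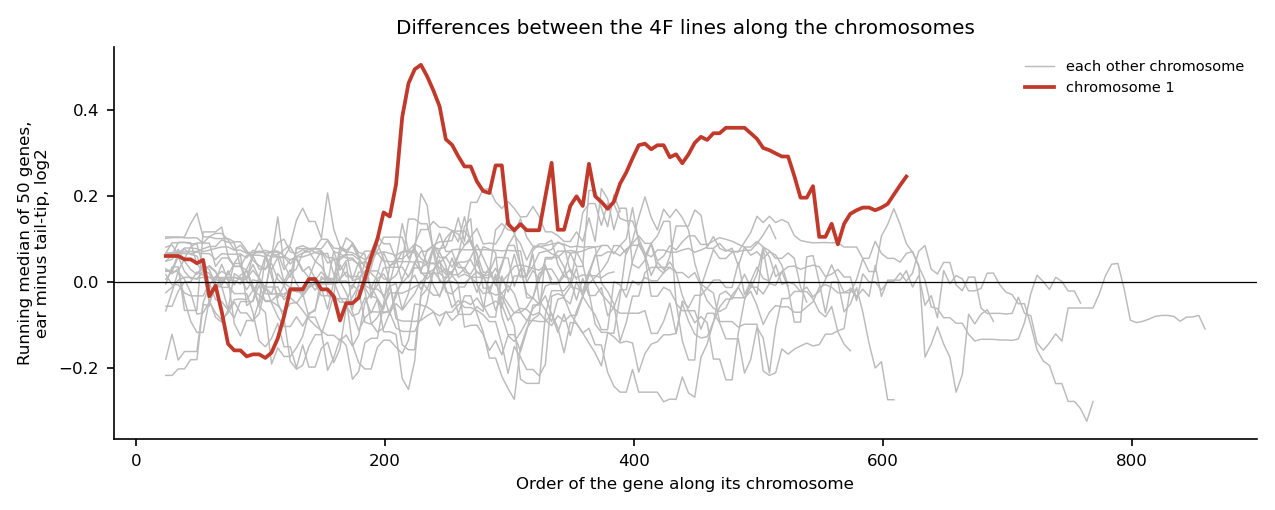
Median log2 fold change, ear minus tail-tip 4F at passage 8, of 50 neighbouring genes with a mean of at least 100 in 1 of the lines and no switching, against the order of the genes along chromosomes 1 to 19 and X. Chromosome 1 (red) reaches 0.50, the highest of 2007 windows, while the other chromosomes (grey) stay between -0.33 and 0.22.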

How the data were processed

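The study measured RNA by sequencing in 28 libraries of 14 groups, 2 a group. The sources used here state Trizol extraction, oligo(dT) selection, random hexamers and an Illumina instrument, per the labels' protocols. RSEM, Bowtie2 2.0 and the build mm10 are named in the submitters' processing notes, without roles. The deposited table holds a whole-number score per gene, normalised by the authors in a way not given in the sources used here: totals are near equal and tied high values recur, so it was not treated as counts, and the count tests planned for raw counts were not run. Depth is unknown.

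Groups were taken from the labels. All 17295 gene IDs matched GENCODE M21. Values were transformed as log2(value + 1), and a fold change is on that scale, which understates changes of low genes. limma 3.58.1 in R 4.3.3 was fitted to all 28 libraries, with 1 term per group and a variance prior with a trend. The 16275 genes with a mean of at least 10 were tested, and p-values were adjusted by Benjamini-Hochberg over all of them, with a threshold of 0.05. Every adjusted p in the text is from limma, and ± is its standard error. A gene at 0 in both libraries of a line is given without a fold change. Tables and drawings used Python 3.11.15, numpy 2.4.6, pandas 2.3.3 and matplotlib 3.10.9, and the fit was tested on simulated data. Promoters came from RefSeq for GRCm38.p6.

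The members and gene lists were chosen with earlier results of these data known. Genes were named by this rule: the 12 largest rises and 12 largest falls with a mean of at least 100 in 1 line, the 12 highest of those at 0 on each side, up to 8 members of a list (6 of a marker list) with the smallest adjusted p, and the factor, sex-linked and Hox genes. Other members, named because they did not pass, were listed at 0 or stood outside the tail-tip range, were chosen after their values were seen. Alternatives covered the pseudocount, the filter, centring, the libraries fitted, the variance prior, a replicate block, other tail-tip lines on the lower side of the contrast, and each library left out. Some genes that this rule would name are counted in their lists but not reported here.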

Additional observations from a re-analysis of the deposited data

How the results depend on the processing

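With each of the 4 libraries left out in turn, the genes called numbered 2824 to 3492, against 4419, and those called at least 2-fold numbered 1355 to 1645, against 1680. A minimum mean of 100 left 1076 calls of at least 2-fold, from fewer genes tested. Against the mean of the 3 tail-tip lines, 2325 genes were called, 786 of them at least 2-fold. With the replicate number as a term (replicate block) there were 5672 calls over the 26 libraries with such a number, of which 1803 were at least 2-fold, and 111 calls in the 4 libraries alone, all at least 2-fold. Same-numbered libraries of the ear line and the tail-tip line at passage 8 did not deviate together (correlation -0.01 over genes, which are not independent). Whether the numbers pair libraries of the other groups was not tested. Without the 2 libraries of neural stem cells with no factor 5665 genes were called, and without switching genes 4383, both chosen after seeing the data. The pseudocounts, no filter, centring, the prior and the other fits kept both counts within 1.5 times.

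Of 173 called genes named in the text, 144 kept the call without any 1 library, and 74 kept it under every alternative in which they were tested, other than the replicate block in the 4 libraries alone. Another tail-tip culture on the lower side of the contrast turned the sign of some genes, and the cause was not tested. Against passage 18 the log2 fold change was -0.50 for Sox2, 0.91 for Myc, -0.38 for Olfr920, -0.26 for Abca17, 0.21 for Exosc6, -0.56 for Pax6, -0.30 for Irx1, 1.03 for Pax7, 3.02 for Slc16a3, -0.17 for Pck2, 1.13 for Ccnd2, 0.50 for Cdkn2a, -0.40 for Cdkn1b, -0.47 for Slc1a2, -3.71 for Aqp4, -1.12 for Pdgfra, -1.62 for Cnp, 1.15 for Ina, 1.40 for Dusp6, 0.73 for Cdon, -0.39 for Nrcam, 0.53 for Efnb2, 0.57 for Peg10, -0.45 for Kdm5d and -0.91 for Lrrc61. It was 0.0 for Klri1, Akr1c14, Ermn, Hoxc5, Hoxc10 and Meox2. Against the mean of passages 8 and 18 it was -1.20 for Aqp4, -0.47 for Cnp and 0.046 for Dusp6. Against the mean of the 3 tail-tip lines it was -0.19 for Sox2, -1.34 for Hoxb3, 0.076 for Hoxa10, -0.40 for Hoxa5, -0.79 for Barx1, -0.62 for Irx1, 0.51 for Pax7, 0.44 for Ccnd2, -0.17 for Cdkn1b, -0.50 for Cnp, 1.87 for Evc, 2.56 for Evc2, 0.086 for Ndn, 0.068 for Peg10 and 0.11 for Ddx3x.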
